A study of Mus musculus with 4 samples.

Results

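Brown adipose tissue (BAT) burns fuel to make heat, and its mitochondria are built under the control of a small group of nuclear transcription factors and coactivators. The messenger RNAs of 10 such regulators were followed here, taken from the 17259 genes of the deposited table by their gene symbols. They were the coactivators Ppargc1a and Ppargc1b, the estrogen-related receptors Esrra and Esrrg, the nuclear respiratory factors Nrf1 and Gabpa, the peroxisome proliferator-activated receptors Ppara and Pparg, and the brown fat identity factors Prdm16 and Ebf2. All 10 were listed in the table and all 10 passed the filter on low values, a mean of at least 10 over the libraries.

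RNA of wild-type (WT) mouse BAT was sequenced from 2 libraries of isolated mitochondria, titled BAT-Mito, and from 2 libraries titled BAT-total. The treatment label of the BAT-total libraries names tissue without mitochondria, while the study also speaks of total lysates, so that these libraries may hold the whole tissue or what the isolation left. The labels give no age, and nothing says whether the 2 libraries of a group came from separate animals or from pooled ones, so p-values measure only the spread between these libraries. Values are normalised counts, gene counts that the authors divided by a size factor per library.

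The regulators act in layers. PGC-1α and PGC-1β, the proteins of Ppargc1a and Ppargc1b, do not bind DNA on their own but are recruited by nuclear receptors and by NRF1 to switch on genes of respiration and fat oxidation. The estrogen-related receptors, NRF1 and GABPA bind promoters of nuclear genes for the respiratory chain and for the upkeep of mitochondrial DNA, the PPARs bind genes of lipid storage and fat oxidation, and PRDM16 and EBF2 hold cells in the brown adipocyte state. All of these proteins are made from nuclear genes and translated in the cytosol, so that their mRNAs measure nuclear transcripts in each fraction.

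Some of these genes carry in their own promoters letters of the sequence bound by another of them, NRF1. The 7 letters GCATGCG, the core of the NRF1 motif, were searched on both strands in the 250 bases before each annotated start in the RefSeq table (build GRCm38.p6), where overlapping matches of both strands form 1 palindrome. Of 8 regulators with a window in that table, 4 held a match in at least 1 of their windows, against 3.02% of all 32851 windows. A gene can have several windows, so that 4 of 14 windows of the regulators held a match. The 60 bases directly before the start are shown for these 4 genes, with matches on either strand in capitals. They come from chr19:6921809-6921868 (minus strand), chr16:84835064-84835123 (plus), chr15:85735716-85735775 (plus) and chr1:187651698-187651757 (plus), and the last belongs to 1 of 4 windows of Esrrg, which holds a further match upstream of the stretch shown.
Esrra: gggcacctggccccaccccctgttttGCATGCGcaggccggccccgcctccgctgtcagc
Gabpa: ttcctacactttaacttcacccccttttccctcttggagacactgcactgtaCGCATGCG
Ppara: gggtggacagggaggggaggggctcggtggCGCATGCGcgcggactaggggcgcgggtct
Esrrg: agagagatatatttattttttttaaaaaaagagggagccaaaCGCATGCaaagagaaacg
A match describes these letters and is not evidence of binding in these libraries.

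Few BAT-Mito reads stood behind every comparison of these genes. The BAT-Mito libraries held 26288871 and 24910434 reads in genes, of which mitochondrially encoded genes took 95.3% and 95.5% (51.1% and 59.3% of the BAT-total values). Nuclear protein-coding genes kept 49420 and 58238 reads. Reads behind the BAT-total values are unknown, and their totals were 1590096 and 1905303 normalised counts. One BAT-Mito read was worth 8.32 units in replicate 1 and 6.90 in replicate 2. The 8 brown adipocyte markers were above 0 in all 4 libraries, and their summed values were 2855 and 8074 in BAT-Mito and 13405 and 11810 in BAT-total.

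The regulators were present at low levels in BAT-total and at a handful of reads in BAT-Mito. Together they had 43 and 49 reads in BAT-Mito replicates 1 and 2, which was 0.0871% (95% Wilson interval 0.0646 to 0.117%) and 0.0842% (0.0637 to 0.111%) of the nuclear protein-coding reads. In BAT-total they took 0.209% and 0.176% of the nuclear protein-coding values. Means were 0.0856% ± 0.00205 for BAT-Mito and 0.193% ± 0.0234 for BAT-total (SD, n = 2 libraries), a 2.25-fold larger share in BAT-total. With all nuclear genes as denominator the shares were 0.00390% and 0.158%, a 40.7-fold difference. That denominator differs in make-up between the groups. Nuclear protein-coding genes were 0.188% and 0.234% of all BAT-Mito values and 40.5% and 33.2% of all BAT-total values. In BAT-Mito most of the nuclear values therefore came from other genes, so the larger fold is not a larger change of the regulators. As shares of nuclear protein-coding genes, both BAT-Mito values and their intervals lay below both BAT-total shares. The contrast is between a fraction and tissue, and in such bulk samples fewer cells of a type, less RNA per cell and RNA removed by the isolation cannot be told apart. Intervals cover counting error only.

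All 10 regulators had lower normalised counts in both BAT-Mito libraries than in both BAT-total libraries, as had 52.1% of the 8215 genes tested. Every log2 fold change of the regulators was below 0, which held for 81.2% of genes, and none of the 10 lay above BAT-total in both libraries, against 8.59% of genes. With values taken as shares of nuclear protein-coding genes, 9 of the 10 regulators, all but Gabpa, lay below BAT-total in both BAT-Mito libraries, against 33.5% of genes. Only Esrra was called lower by limma at an adjusted p under 0.05, and no regulator was called higher. Esrra, like Nrf1, passed the filter on the mean only through its BAT-total values. Of all genes tested, 4.41% were called lower and 0.803% higher. At an unadjusted p under 0.05, 3 regulators were lower (Esrra, Ppara and Ppargc1b), against 14.9% of all genes. The count turned on single libraries: without BAT-Mito replicate 1 limma called 9 regulators and 3374 genes lower, without BAT-Mito replicate 2 it called 7 and 3864, and without either BAT-total replicate 0 and 0. At this depth a p-value that missed the threshold does not show equal levels.

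**Figure D1:**
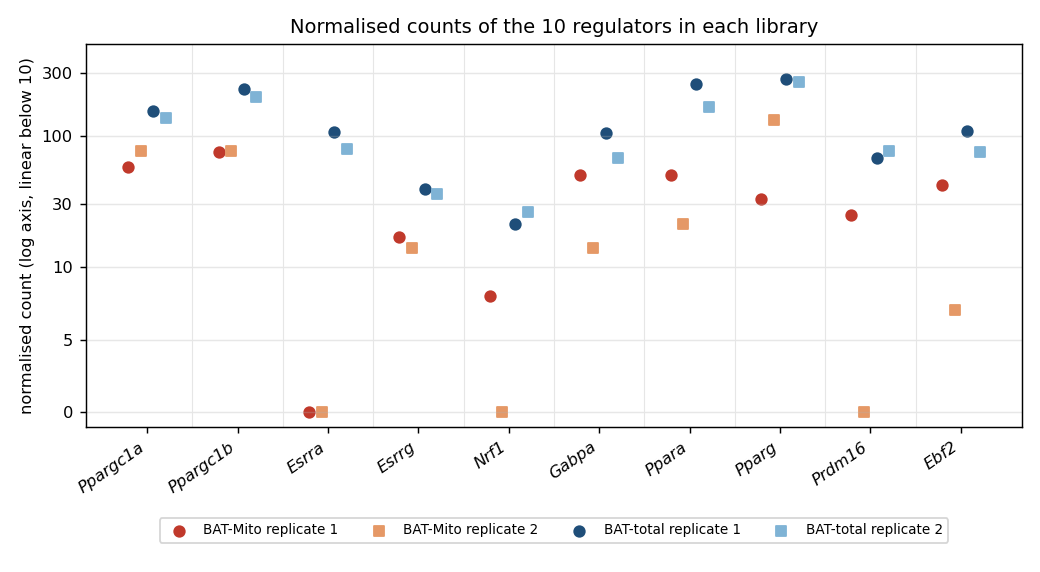
Normalised counts (vertical axis, logarithmic above 10 and linear below) of the 10 regulators in the 4 libraries, 1 point per library. Both BAT-Mito points of every gene lie below both BAT-total points, and Esrra lies at 0 in both BAT-Mito libraries.

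The coactivators had reads in both BAT-Mito libraries, 18 and 20 in all, and close values in the 2 libraries of each group. Ppargc1a (ENSMUSG00000029167, chromosome 5, 51454250 to 51567726, minus strand, GRCm38) encodes the cold-inducible PGC-1α. Its normalised counts were 58 and 76 in BAT-Mito, from 7 and 11 reads, and 155 and 137 in BAT-total. The groups did not overlap, and the log2 fold change was -1.12 (SE 0.44, limma adjusted p 0.299). Ppargc1b (ENSMUSG00000033871, chromosome 18, 61298136 to 61400431, minus strand) encodes PGC-1β, the constitutive relative. It had 75 and 76 normalised counts in BAT-Mito, from 9 and 11 reads, and 226 and 197 in BAT-total. Its 2 BAT-Mito values were almost equal, and the log2 fold change was -1.47 (SE 0.41, limma adjusted p 0.235).

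Of the estrogen-related receptors, Esrra had no BAT-Mito reads and Esrrg had 4, and the difference between their changes was not tested. Esrra (ENSMUSG00000024955, chromosome 19, 6910977 to 6921840, minus strand) encodes ERRα, an orphan receptor that PGC-1 coactivators use to drive respiratory chain genes. It had 107 and 79 normalised counts in BAT-total and 0 reads in both BAT-Mito libraries. No other regulator was at 0 in both, as were 4.53% of all genes tested. Against the limit that 0 reads allow, 3 reads over both libraries or 11.3 units, Esrra was at least 8.22-fold lower in BAT-Mito, and at least 5.22-fold lower as a share of nuclear protein-coding genes. limma gave an adjusted p of 0.0249 and a fitted log2 fold change of -6.54 (SE 0.44), which depends on the pseudocount of 1 and is no bound. Esrra entered the test only through BAT-total, the group where it is high, and the call rests on a spread of 0 between the BAT-Mito libraries: of the 362 genes called lower, 359 had 0 reads in both. It was lost with the replicate number as a block (limma adjusted p 0.158), with a pseudocount of 10 (0.0724), and without BAT-total replicate 1 (0.439) or BAT-total replicate 2 (0.446).

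Esrrg (ENSMUSG00000026610, chromosome 1, 187608791 to 188214885, plus strand) encodes ERRγ, a relative that is abundant in oxidative tissues. It had 17 and 14 normalised counts in BAT-Mito, 2 reads in each, and 39 and 36 in BAT-total. The log2 fold change of -1.23 (SE 0.42, limma adjusted p 0.278) equalled the median of all genes to 2 decimals. The level in BAT-total was 2.48 times that of the pooled BAT-Mito reads, with a counting interval of 0.971 to 9.12.

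The nuclear respiratory factors had 1 read (Nrf1) and 8 reads (Gabpa) in both BAT-Mito libraries together. Nrf1 (ENSMUSG00000058440, chromosome 6, 30047988 to 30153458, plus strand) had 8 and 0 normalised counts in BAT-Mito, a single read in replicate 1, and 21 and 26 in BAT-total. The ratio of BAT-total to the pooled BAT-Mito reads was 6.23 with a counting interval of 1.12 to 246.0, and limma gave a log2 fold change of -3.02 (SE 1.29, adjusted p 0.316). Gabpa (ENSMUSG00000008976, chromosome 16, 84834925 to 84863779, plus strand), the DNA-binding subunit of the GA-binding protein, had 50 and 14 normalised counts in BAT-Mito, from 6 and 2 reads, and 104 and 68 in BAT-total. Its BAT-Mito replicate 1 came close to BAT-total replicate 2, and the log2 fold change was -1.62 (SE 0.82, limma adjusted p 0.351).

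The PPARs were lower in both BAT-Mito libraries than in either BAT-total library, and Pparg was unequal between the BAT-Mito libraries. Pparg (ENSMUSG00000000440, chromosome 6, 115360951 to 115490399, plus strand), the master regulator of fat cells, had 33 and 131 normalised counts in BAT-Mito and 270 and 256 in BAT-total. Its reads were 4 (95% Poisson interval 1.09 to 10.2) and 19 (11.4 to 29.7), so that the 2 BAT-Mito libraries differed beyond counting error, and the log2 fold change was -1.98 (SE 0.85, limma adjusted p 0.317). Ppara (ENSMUSG00000022383, chromosome 15, 85734983 to 85802819, plus strand), which drives fat oxidation, had 50 and 21 normalised counts in BAT-Mito, from 6 and 3 reads, and 249 and 165 in BAT-total. The groups did not overlap, and the log2 fold change was -2.60 (SE 0.66, limma adjusted p 0.213). Of the regulators not called by limma, Ppara alone was called lower by edgeR (log2 fold change -2.59, adjusted p 0.0349), where 4.02% of genes were called lower. That fit used reads for BAT-Mito only and took the normalised BAT-total values as if they were reads.

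Markers of other tissues moved between the libraries. The summed normalised counts of 8 liver markers were 12425 and 993 in BAT-Mito and 200 and 7 in BAT-total, with 3 of the 8 at 0 in BAT-total replicate 2 and none in the others. All 8 were higher in replicate 1 of both groups, and liver is a tissue with much Ppara. For 6 skeletal muscle markers the sums were 2863 and 883 against 291 and 604, with none at 0, and of 6 heart markers only Myh6 was listed, at 183, 531, 2 and 0. The 6 endothelial markers went the other way, with sums of 101 and 7 in BAT-Mito and 905 and 949 in BAT-total, and 2 and 5 of them at 0 in BAT-Mito. Sums of 6 macrophage markers were 267 and 234 against 71 and 75, with 1 at 0 in BAT-Mito replicate 2, and of 5 blood markers 250 and 635 against 296 and 624, with 1 at 0 in BAT-Mito replicate 1. The part of these tissues in the regulators' values was not tested.

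The brown identity factors also had few reads in BAT-Mito. Prdm16 (ENSMUSG00000039410, chromosome 4, 154316125 to 154636873, minus strand), a zinc finger cofactor that sets brown against muscle and white fat fate, had 25 and 0 normalised counts in BAT-Mito, 3 reads in all, and 68 and 76 in BAT-total. The ratio of BAT-total to the pooled BAT-Mito reads was 6.36 with a counting interval of 2.18 to 30.8, and limma gave a log2 fold change of -3.84 (SE 1.85, adjusted p 0.339). Ebf2 (ENSMUSG00000022053, chromosome 14, 67233292 to 67430918, plus strand), a factor that opens brown fat genes for PPARγ, had 42 and 7 normalised counts in BAT-Mito, from 5 reads and 1 read, and 109 and 75 in BAT-total. The groups did not overlap, and the log2 fold change was -2.30 (SE 1.04, limma adjusted p 0.324).

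Reads were also set beside the number each gene would have had in BAT-Mito at its BAT-total share of nuclear protein-coding genes, which does not depend on the deposited scaling. Esrra had 0 reads where 15.7 corresponded to that share, which gives the bound of 5.22-fold at 3 reads stated above (95% Poisson interval of the proportion 0 to 0.236). Ppara had 9 where the share gave 34.8, a proportion of 0.258 (95% Poisson interval 0.118 to 0.491). Pparg had 23 for 44.3 (0.519, 0.329 to 0.779), and Ppargc1b had 20 for 35.6 (0.561, 0.343 to 0.867). Prdm16 with 3 for 12.1 (0.247, 0.0510 to 0.722) and Ebf2 with 6 for 15.5 (0.388, 0.142 to 0.844) also had pooled intervals below their share. These intervals leave out the spread between libraries. Taken singly, both BAT-Mito libraries had an interval below the share for Esrra and Ppara. For Pparg, Prdm16 and Ebf2 the interval of 1 library held it (Pparg replicate 2 had 19 reads for 24.0, Prdm16 replicate 1 had 3 for 5.57 and Ebf2 replicate 1 had 5 for 7.11). For Ppargc1b the intervals of both libraries held it (9 reads for 16.4 and 11 for 19.3). The pooled intervals of the other 4 regulators reached their share. Ppargc1a had 18 reads for 24.6 (0.732, 0.434 to 1.16), Gabpa 8 for 14.5, Esrrg 4 for 6.32 and Nrf1 1 for 3.96, so that a lower share of these 4 was not detectable at this depth.

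**Figure D2:**
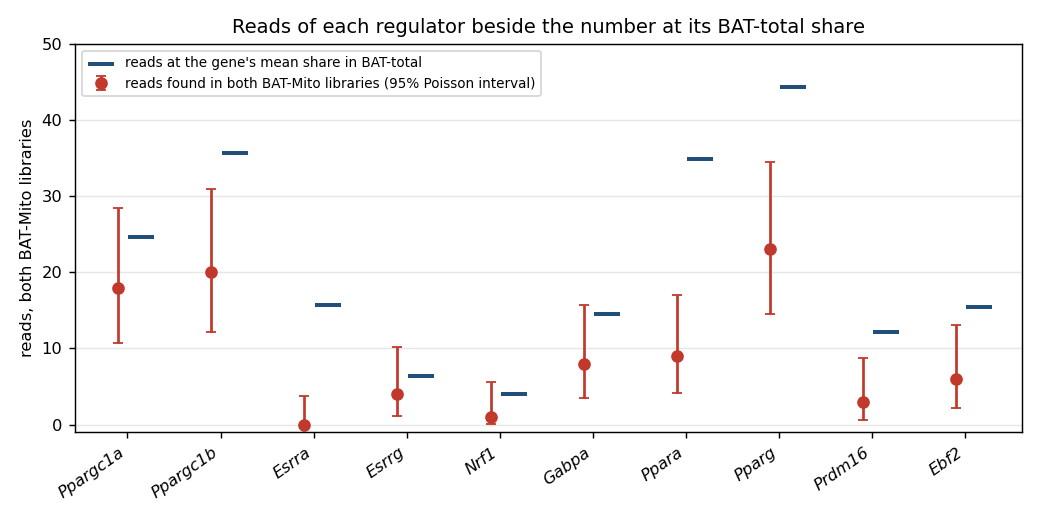
Reads of each regulator in both BAT-Mito libraries (red points with 95% Poisson intervals) beside the number at its mean BAT-total share of nuclear protein-coding values (blue bars); the vertical axis counts reads. The blue bar lies above the interval for 6 genes and within it for Ppargc1a, Gabpa, Esrrg and Nrf1.

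As a group the regulators had a median log2 fold change of -2.14 (range -6.54 to -1.12), against -1.23 for all genes tested, a difference of -0.91. The shift of all genes depends on the scaling. With CPM over nuclear protein-coding genes, where each library is set to the same total of these genes, the medians were -1.51 and -0.63, and all 10 values stayed below 0. The distance to all genes differed between the BAT-Mito libraries: it was -1.94 without replicate 1 and -0.41 without replicate 2. Relative to the median of all genes Ppargc1a lay at 0.11 and Esrrg at 0.00, while Ebf2, Ppara, Nrf1 and Prdm16 lay between -1.07 and -2.61, and Esrra further below. Without BAT-Mito replicate 2 these distances were -0.04 for Ebf2, -0.95 for Ppara, -0.38 for Nrf1 and -0.43 for Prdm16. Without BAT-Mito replicate 1 they were -2.60, -2.29, -3.69 and -5.27. Small distances changed sign with the processing: with a pseudocount of 10 those of Ppargc1a and Esrrg were -0.29 and -0.17, and with edgeR -0.30 and -0.50. The distances of genes at 0 in a BAT-Mito library shrank with the pseudocount: with 10 in place of 1, the distance to the median of all genes went from -1.79 to -0.58 for Nrf1 and from -2.61 to -1.40 for Prdm16.

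**Figure D3:**
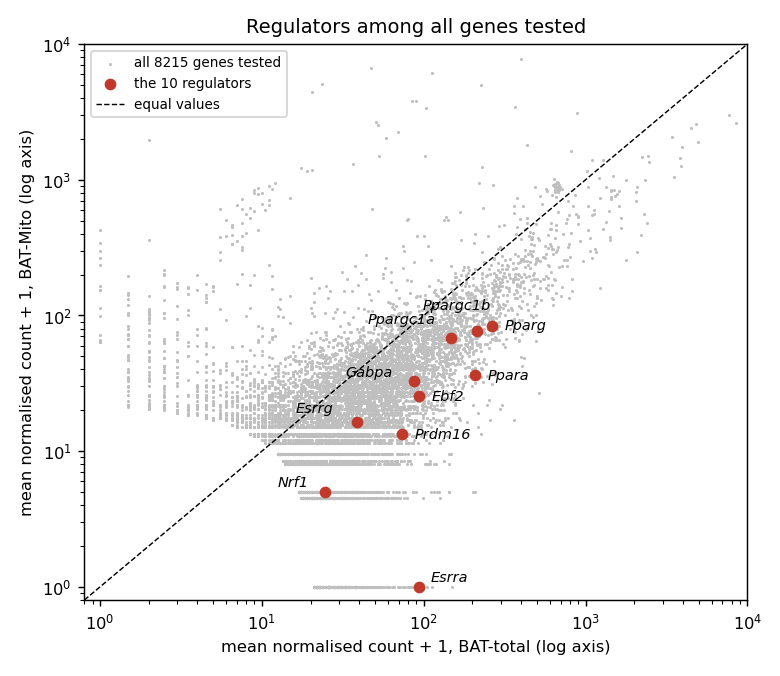
Mean normalised count plus 1 in BAT-Mito against BAT-total (both axes logarithmic) for all 8215 genes tested in grey and the 10 regulators in red; 32 genes above 10000 on either axis are outside the frame. All regulators lie under the line of equal values, Ppargc1a and Esrrg within the main cloud and Esrra on the row of genes without reads in BAT-Mito.

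The 2 BAT-Mito libraries differed in brown adipocyte markers, which had 343 reads in replicate 1 and 1170 in replicate 2, while the summed reads of the regulators were 43 and 49. Of the 10 regulators, 6 took a larger share of nuclear protein-coding reads in replicate 1. Of the lists described below, 19 of 48 other regulators, 5 of 19 targets of ERRs and nuclear respiratory factors, 5 of 16 PPAR targets and 3 of 8 identity genes did. The share over all genes was not counted. Esrra had 0 reads in both libraries, and among the 6 were Nrf1 (1 read and 0), Prdm16 (3 and 0) and Esrrg (2 and 2).

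Levels of different genes were compared per kilobase of exon. In BAT-total the order was led by Pparg (89.1 normalised counts per kb ± 3.35), followed by Ppara (54.0 ± 15.5) and Ppargc1b (53.0 ± 5.14), which overlapped each other (SD, n = 2). Below them Ppargc1a (22.1 ± 1.93), Esrra (21.2 ± 4.51), Gabpa (15.1 ± 4.48) and Ebf2 (13.3 ± 3.47) each overlapped the next, and Prdm16 (7.72 ± 0.607), Esrrg (6.04 ± 0.342) and Nrf1 (2.29 ± 0.344) followed without overlap. In BAT-Mito Pparg (27.8 ± 23.5) and Ppargc1b (18.9 ± 0.177) led by mean and overlapped, and in replicate 1 alone Pparg (11.2) lay below Ppargc1b (18.8) and Ppara (13.0). Ppargc1b did not overlap Ppargc1a (10.2 ± 1.93), and every later neighbour down to Esrra, last at 0, overlapped the one before it. Exon lengths ran from 2953 bp for Pparg to 10282 bp for Nrf1, and Esrra's coordinates differ between the table and the annotation that gave its length.

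**Figure D4:**
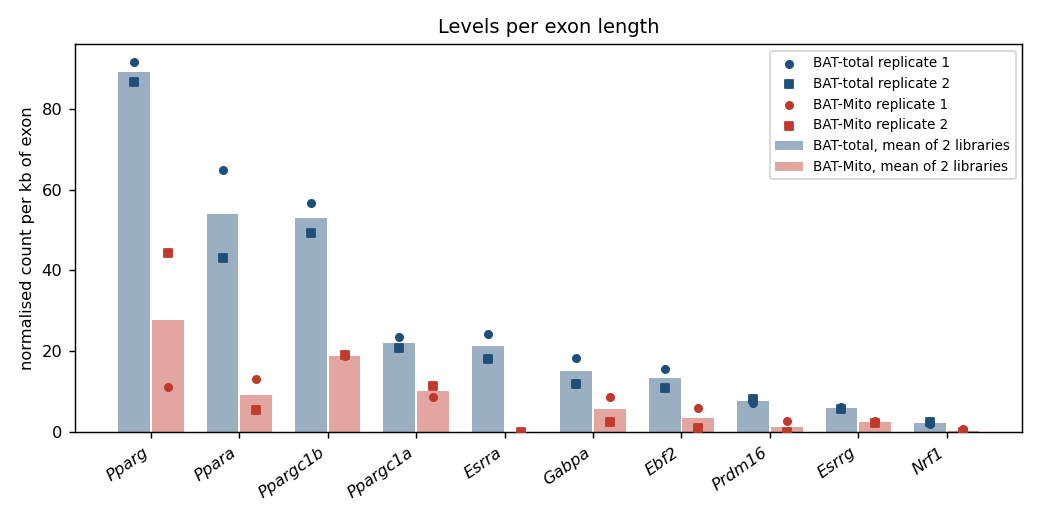
Normalised counts per kb of exon (vertical axis) of the regulators, ordered by their mean in BAT-total; bars are means of 2 libraries and points single libraries. Pparg has the highest mean in both groups, in BAT-Mito through replicate 2, and Ppara, next after Pparg by mean in BAT-total, has a lower mean than Ppargc1b and Ppargc1a in BAT-Mito, though it overlaps Ppargc1a.

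Pparg had the highest mean of the regulators in BAT-Mito through replicate 2 (131), while in replicate 1 its 33 normalised counts lay below those of Ppargc1b, Ppargc1a, Gabpa, Ppara and Ebf2. The genes closest to it by Euclidean distance of log2 values over the 4 libraries were Cnbp (distance 0.242), Lrpprc (0.388) and Oplah (0.403). Like Pparg they had 33 normalised counts in BAT-Mito replicate 1, and between 104 and 145 in replicate 2.

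Other regulators of the same programme ran from -4.88 to 0.41 in log2 fold change, with 45 of 48 below 0. Of 55 listed partners, coactivators, corepressors and further factors 48 were tested, 2 were called lower by limma and 0 higher (8 lower and 0 higher at an unadjusted p under 0.05, and 2 lower and 0 higher by edgeR), and their median log2 fold change was -1.52. Over all genes tested 81.2% were below 0, 4.41% were called lower by limma, 14.9% were lower at an unadjusted p under 0.05 and 4.02% were called lower by edgeR. The 2 were Rxrg, a partner with which PPARs bind DNA, and Irf4, a factor that works with PGC-1α in brown fat. Rxrg had 30 and 27 normalised counts in BAT-total and Irf4 31 and 25, and both had 0 reads in both BAT-Mito libraries. At the limit of 3 reads they were at least 2.52-fold and 2.47-fold lower. Both passed the filter on the mean only through BAT-total, and none of the 48 was called with a pseudocount of 10 or with the replicate block. With limma's trend 4 were called lower (452 of the 8215 genes tested), and with CPM over all genes all 48 (7906 of 8215). The count also depended on single libraries. The best detected in BAT-Mito were Nfia, Cebpa and Cebpb, factors of adipocyte differentiation. Nfia had 266 and 283 normalised counts in BAT-Mito and 295 and 309 in BAT-total, a log2 fold change of -0.14 (SE 0.41), while those of Cebpa and Cebpb were -1.18 (SE 0.42) and -0.71 (SE 0.44).

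Genes that these regulators are known to switch on were better covered. Of 20 targets of estrogen-related receptors and nuclear respiratory factors 19 were tested, with 0 calls by limma or edgeR (2 lower at an unadjusted p under 0.05) and a median log2 fold change of -1.25. The median was -0.39 without BAT-Mito replicate 1 and -1.58 without BAT-Mito replicate 2. Atp5b, a subunit of ATP synthase, had 824 and 1877 normalised counts in BAT-Mito and 2683 and 2270 in BAT-total, a log2 fold change of -0.99 (SE 0.62). Idh3a of the citric acid cycle and Acadm of fat oxidation overlapped between the groups, with log2 fold changes of -0.71 (SE 0.62) and -1.15 (SE 0.88). Tfam, which packages mitochondrial DNA and was singled out after its values were seen, was the one target of this list above 0, with 75 and 28 against 40 and 29 normalised counts.

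Of 17 PPAR targets 16 were tested, with 0 calls by limma (6 lower at an unadjusted p under 0.05), 3 called lower by edgeR, and a median of -1.57. Fabp4, the fatty acid binding protein of adipocytes, had 957 and 2823 normalised counts in BAT-Mito and 5208 and 4746 in BAT-total, a log2 fold change of -1.60 (SE 0.73), and those of Lpl and Pck1 were -1.77 (SE 0.48) and -1.25 (SE 0.57). All 8 brown fat identity genes were tested, with 0 calls by limma (1 lower at an unadjusted p under 0.05), 2 called lower by edgeR, and a median of -1.05. Their median was -0.36 without BAT-Mito replicate 1 and -1.77 without BAT-Mito replicate 2, and that of the PPAR targets -1.36 and -1.88. Ucp1, the uncoupling protein that releases heat, had 1290 and 3554 normalised counts in BAT-Mito and 4819 and 4185 in BAT-total, a log2 fold change of -1.07 (SE 0.70). Cidea and Cox8b had -2.29 (SE 0.82) and -1.04 (SE 0.67). Beside these counts of targets and identity genes stand 14.9% of all genes lower at an unadjusted p under 0.05 and 4.02% called lower by edgeR. The differences between the lists and the 10 regulators or all genes were not tested.

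**Figure D5:**
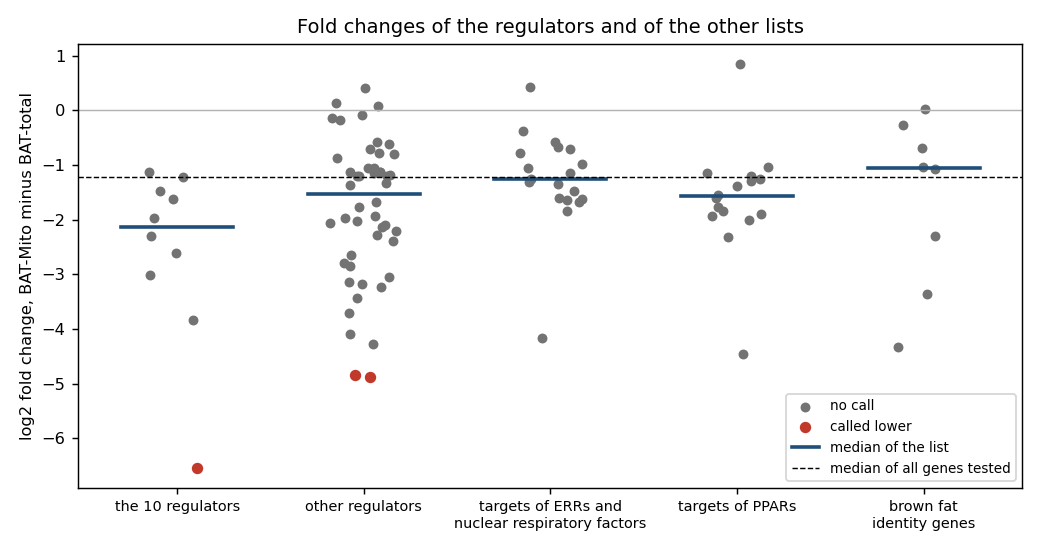
Log2 fold change of BAT-Mito minus BAT-total (vertical axis) for each tested gene of the 5 lists; red points were called lower by limma, blue bars are list medians and the dashed line is the median of all genes tested, -1.23. The median of the 10 regulators, -2.14, is the lowest of the 5 with all libraries, but without BAT-Mito replicate 2 it is -1.46, above those of the PPAR targets (-1.88), the identity genes (-1.77) and the targets of ERRs and nuclear respiratory factors (-1.58). Most points of every list lie below 0.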

How the data were processed

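RNA-seq of 2 BAT-Mito and 2 BAT-total libraries was analysed. The authors deposited 1 table of normalised counts, a signal of gene counts divided by a size factor and rounded; per the labels they used Trimmomatic 0.39, STAR 2.7.10a, featureCounts 2.0.2 and DESeq2 1.30.1 on mm10. In the methods of the study, fragmentation time of mitochondrial samples followed the size of their RNA, and heart mitochondria were treated with digitonin and RNase A. Whether BAT was treated so is not given in the sources used here. In BAT-Mito values rose in steps, and whole reads were recovered for 100.0% of values, each a whole multiple of that step after rounding. BAT-total reads were not recovered.

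Genes with a mean of at least 10 (8215) were compared as log2(value + 1) with limma 3.58.1 in R 4.3.3 (Benjamini-Hochberg over all). edgeR 4.0.16 on reads took the deposited BAT-total values as reads. Both were also run on simulated counts with known changes, the outcome of which is not given here. Groups followed the titles. Of listed genes 17099 (99.1%) had equal coordinates in GENCODE M21, which gave exon lengths. The regulators and lists were chosen with earlier results of these data known. Named genes were all regulators and, per list, up to 3 calls with the largest fold change per direction, the 3 highest in BAT-Mito, and the 3 genes nearest to the regulator highest in BAT-Mito. The values of 1 listed gene are not reported here.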

Additional observations from a re-analysis of the deposited data

How the results depend on the processing

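All 10 regulators kept a log2 fold change below 0 in each of the 136 values from 14 alternatives. Adjusted p-values moved: over all alternatives those of Esrra ran from 0.00122 to 0.446. Esrra, called with the scaling as deposited, was not called with a pseudocount of 10 (-3.35) or with the replicate block (-6.54, limma adjusted p 0.158). Without a filter on the mean Ppargc1b (-1.47) and Esrrg (-1.23) were called too, where 20.8% of 17259 genes were called lower, and with edgeR Ppara (-2.59) was. With CPM over all genes, where the share of mitochondrial transcripts shifts every nuclear gene, all 10 were called lower, as were 7906 of the 8215 genes tested. The values were -7.89 for Ppargc1a, -8.25 for Ppargc1b, -12.3 for Esrra, -7.91 for Esrrg, -9.27 for Nrf1, -8.35 for Gabpa, -9.36 for Ppara, -8.74 for Pparg, -10.2 for Prdm16 and -9.00 for Ebf2, with a median of -8.87.

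The 1 regulator called lower became 0 with a pseudocount of 10, 3 without a filter, 0 with a minimum mean of 50 (which leaves 6 regulators and removes Esrra), 10 with CPM, 0 with the replicate block and 2 with edgeR. Of the other listed genes 2 were called lower, and 0, 14, 0, 90, 0 and 7 under the same alternatives and 7 with limma's trend. The 362 genes called lower became 1, 3587, 11, 7906 and 0 under the first 5, and the 66 called higher became 143 without a filter, 13 with CPM, 0 with the block and 135 with edgeR. Higher genes made up 15.4% of calls, 98.1% with a pseudocount of 10, 3.83% without a filter, 85.3% with a minimum mean of 50, 0.164% with CPM and 29.0% with edgeR. The causes of these changes in the number of calls were not tested. The labels state no pairing. Libraries of the same number shared their deviations weakly, with a correlation of 0.112 over genes that rests on a single pair. With few BAT-Mito reads per gene counting error weakens such a correlation, so it cannot decide the pairing. All 8 liver markers were higher in replicate 1 of both groups, while of 8 brown adipocyte markers 1 was in BAT-Mito and 7 in BAT-total. The main test took the libraries as unpaired, and the block left 0 of 362 genes called lower. The regulators' share differed by -0.107 percentage points, and by -0.155 with all nuclear genes as denominator.

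Leaving out 1 library, with a lone library assumed to vary like the other group, gave 0 to 9 regulators called lower (9 without BAT-Mito replicate 1, 7 without BAT-Mito replicate 2, 0 without either BAT-total replicate), 0 to 63 other listed genes lower and 0 to 1 higher, and 0 to 3864 genes lower and 0 to 622 higher in all. Log2 fold changes ran from -1.31 to -0.93 for Ppargc1a, -1.57 to -1.37 for Ppargc1b, -6.75 to -6.32 for Esrra, -1.36 to -1.10 for Esrrg, -4.61 to -1.44 for Nrf1, -2.50 to -0.74 for Gabpa, -3.21 to -1.998 for Ppara, -2.96 to -0.999 for Pparg, -6.19 to -1.49 for Prdm16 and -3.51 to -1.09 for Ebf2, their median from -2.86 to -1.46, and the share difference from -0.124 to -0.0905 percentage points.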
